A study of Mus musculus with 19 samples.

Results

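The 33 chemokine ligand genes of a whole-transcript array were followed across 19 mouse mammary tumours. The choice was by symbol, out of 22180 genes with 1 symbol, and was made with earlier results of these data known. A member's probe set carries a single gene symbol that is Ccl or Cxcl and a number, Cx3cl1 or Xcl1. A gene with more than 1 such probe set was represented by the one whose mean over the 19 arrays was highest. A gene was tested where its log2 value reached 4.38, the median of the whole table, on at least 4 arrays, and 25 of the 33 ligands did so among 14231 genes in all.

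Chemokines are small secreted proteins that steer leukocytes along a gradient by binding G-protein-coupled receptors, and each receptor class marks the cells that answer. CXCR2 ligands draw neutrophils, CXCR3 ligands draw activated T and NK cells, CCR2 ligands draw monocytes, and CCR1 ligands act on monocytes and macrophages. In mammary tumours they come from the cancer cells as well as from fibroblasts, macrophages and lymphocytes. Inflammatory chemokines are induced through NF-kappaB or interferon, whereas homeostatic ones such as Cxcl12 are made without such a stimulus.

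All 19 tumours came from MMTV-NIC mice, in which a single mRNA driven by the mammary tumour virus promoter encodes activated ErbB2 (Neu) and Cre recombinase. The controls therefore carried the oncogene and Cre too, and floxed integrin genes were removed in the epithelium and not in the stroma. The genotypes were NIC WT (control, n = 5), NIC itgb1 fl/fl (Itgb1 knockout, n = 4), NIC itgb3 fl/fl (Itgb3 knockout, n = 4) and NIC itgb1 fl/fl itgb3 fl/fl (labelled double knockout, n = 6). RNA was total RNA of flash-frozen tumours at the end of growth, so fewer cells of a type and less RNA per cell cannot be told apart in any value below. The sources used here give no ages. The labels do not say that each tumour came from its own animal, so p-values measure only the spread between these samples.

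All 8 luminal mammary epithelium markers passed the intensity filter, among them the keratin genes Krt8 and Krt18 and the adhesion gene Epcam. Itgb1 averaged 10.16 in control, 8.70 in the Itgb1 knockouts and 8.32 in the labelled double knockouts. Itgb3 averaged 8.12 in control and 7.01 in the Itgb3 knockouts, but 8.13 in the labelled double knockouts, so each direction given for that group carries the label's doubt. Array medians lay between 4.32 and 4.48, and no scan date or batch was given. The number of arrays limits the precision.

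No chemokine ligand passed an adjusted p of 0.05 (limma, adjusted over all 14231 genes) in any of 7 comparisons or in the test for any difference among the 4 groups. In the Itgb1 knockouts against control, 0 of 25 passed where 0.00703% of all genes did, and 0 of 25 had an unadjusted p under 0.05 where 4.86% of all genes did. In the Itgb3 knockouts 0 of 25 passed, as did 0% of all genes, and 1 of 25 had an unadjusted p under 0.05 against 6.14%. In the labelled double knockouts 0 of 25 passed against 0.386%, and 6 of 25 (24%) had an unadjusted p under 0.05 against 16.9%.

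Labelled double minus Itgb1 knockout gave 0 of 25 (0.0211% of all genes) and 2 of 25 at an unadjusted p under 0.05 (12.3%). Labelled double minus Itgb3 knockout gave 0 of 25 (2.87%) and 7 of 25 (21.1%). Itgb3 minus Itgb1 knockout gave 0 of 25 (0%) and 1 of 25 (4.55%), and the interaction, which sets the labelled double knockout difference against the sum of both single ones, gave 0 of 25 (0%) and 1 of 25 (12.5%). The test for any difference among the 4 groups gave 0 of 25 (0.281%) and 7 of 25 at an unadjusted p under 0.05 (15.7%), and these 7 were Cx3cl1, Ccl17, Ccl20, Cxcl14, Ccl28, Cxcl1 and Cxcl16.

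The median log2 difference from control over the 25 ligands was 0.06 in the Itgb1 knockouts and −0.05 in the Itgb3 knockouts, beside 0.02 and −0.01 over all genes. In the labelled double knockouts it was 0.20 beside 0.03, with 18 of 25 ligands (72%) above 0 where 55.9% of all genes were. In the Itgb1 knockouts 19 of 25 (76%) were above 0, also against 55.9%, and in the Itgb3 knockouts 10 of 25 (40%) against 47.6%. These 3 comparisons share the control tumours, and the comparisons among knockouts share theirs. Subtracting each array's median moved the median of all genes in labelled double minus Itgb3 knockout from 0.03 to 0.14 and that of the 25 ligands from 0.30 to 0.41. It also moved the share of higher genes among those called in that comparison from 82.8% to 95.7%, and in labelled double minus control from 76.4% to 87.0%.

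**Figure D1:**
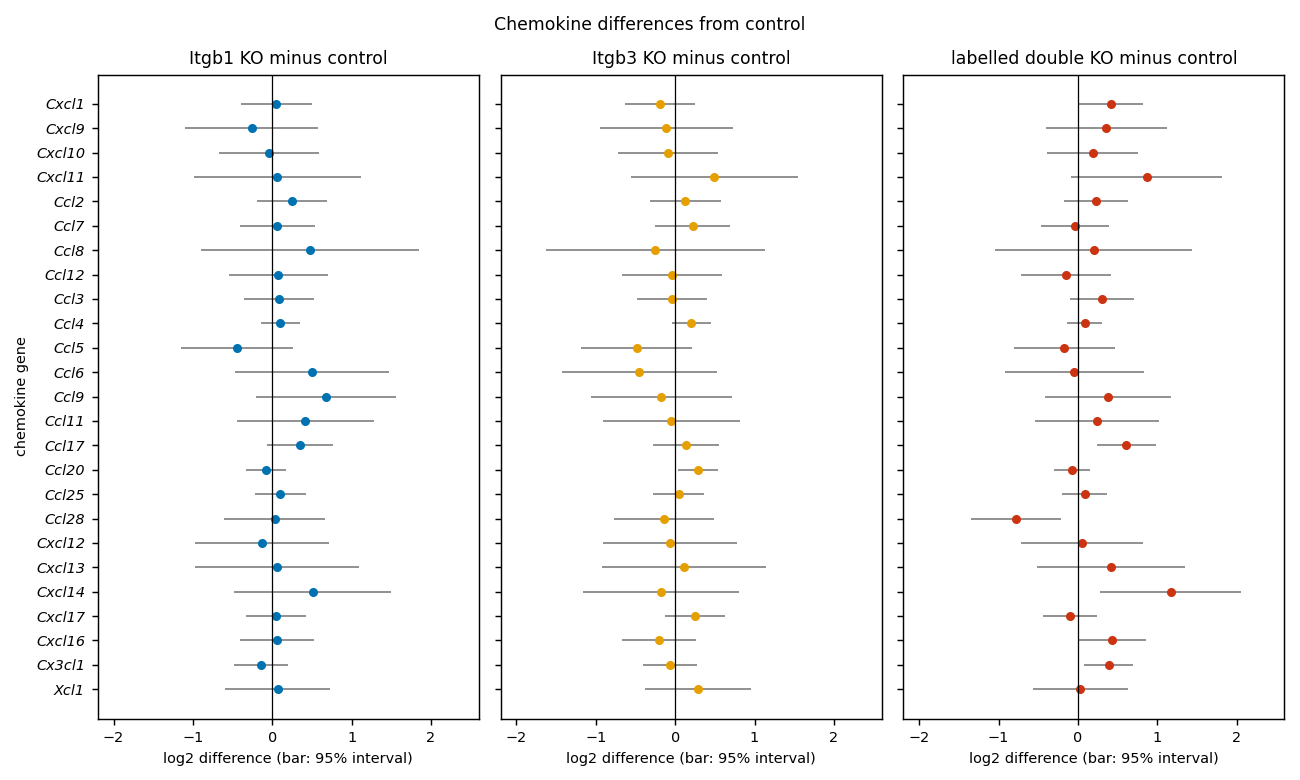
Log2 difference from control for each of the 25 tested chemokine genes (points, with 95% intervals of the limma fit as bars) in the Itgb1 knockouts, the Itgb3 knockouts and the labelled double knockouts. Most bars cross 0, and the widest shifts in the labelled double knockouts are Cxcl14 at 1.17, Cxcl11 at 0.86 (0.36 without labelled double knockout replicate 6) and Ccl28 at −0.78.

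Of the 5 CXCR2 ligands, which share the ELR motif and act on neutrophils, 1 passed the intensity filter. Cxcl1, the keratinocyte-derived chemokine, had log2 levels of 5.01, 5.09, 5.08, 5.50 and 5.57 in control and 5.06, 4.95, 5.15 and 6.04 in the Itgb1 knockouts. It had 5.13, 5.26, 4.87 and 4.96 in the Itgb3 knockouts and ran from 5.29 through a median of 5.67 to 6.11 in the labelled double knockouts. All 6 labelled double knockouts lay above all 4 Itgb3 knockouts, but their range overlapped that of control. The difference was 0.61 from the Itgb3 knockouts (SE 0.203, 1.52-fold, adjusted p = 0.0989) and 0.41 from control (SE 0.191, 1.33-fold, adjusted p = 0.282), and neither passed. Cxcl2 (2.56 to 3.67), Cxcl3 (1.50 to 2.85), Cxcl5 (2.92 to 4.04) and the lung neutrophil chemokine Cxcl15 (3.13 to 3.85) stayed under the filter on every array. Of 9 neutrophil markers 2 passed the filter, the cytokine receptor gene Csf3r and Cxcr2 itself.

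The 120 bases before the start of Cxcl1, Cxcl2 and Cxcl3 are shown because the 3 genes lie near each other, with Cxcl15 among them, yet only Cxcl1 of the 4 was above the filter. They span chr5:90891125-90891244, chr5:90903779-90903898 and chr5:90785981-90786100, all on the plus strand of GRCm38.p6 (RefSeq), and capitals mark a run of 11 bases that all 3 share.
Cxcl1: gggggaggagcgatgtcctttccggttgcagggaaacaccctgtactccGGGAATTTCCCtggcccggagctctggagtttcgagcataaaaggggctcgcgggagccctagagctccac
Cxcl2: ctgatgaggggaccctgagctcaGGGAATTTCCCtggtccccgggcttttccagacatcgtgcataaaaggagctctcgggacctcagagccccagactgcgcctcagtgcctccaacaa
Cxcl3: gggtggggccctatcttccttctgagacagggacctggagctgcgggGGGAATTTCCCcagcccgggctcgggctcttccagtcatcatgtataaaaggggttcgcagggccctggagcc
The run begins 71, 97 and 73 bases before the start, and it was the longest that Cxcl3 shared with either of the others within 250 bases. It has the letters of a kappaB element, to which NF-kappaB is known to bind. It was found, on either strand, in 14 of 32851 mouse promoters, searched over the same 250 bases. RefSeq promoters were at hand for 22 of the 33 ligands. The run describes these letters and not a bound site.

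The CXCR3 ligands Cxcl9, Cxcl10 and Cxcl11, classically induced by interferon, overlapped between genotypes and had their highest values in single tumours. Cxcl9 had log2 levels of 5.14, 7.22, 6.0, 5.86 and 5.69 in control, 5.45, 6.13, 5.69 and 5.62 in the Itgb1 knockouts, 5.91, 6.55, 5.70 and 5.33 in the Itgb3 knockouts, and from 5.40 through 6.17 to 7.58 in the labelled double knockouts. Cxcl10 had 4.98, 5.66, 5.21, 5.20 and 5.20 in control, 5.11, 5.28, 4.88 and 5.56 in the Itgb1 knockouts, 5.14, 5.69, 4.85 and 4.96 in the Itgb3 knockouts, and from 4.70 through 5.15 to 6.68 in the labelled double knockouts. The groups overlapped throughout for both genes. Cxcl11, whose mouse gene RefSeq annotates as a transcribed pseudogene, reached the filter on 1 control, 0 Itgb1 knockout, 3 Itgb3 knockout and 3 labelled double knockout arrays. It had 4.29, 4.26, 4.15, 4.45 and 3.41 in control, 4.31, 4.19, 3.97 and 4.22 in the Itgb1 knockouts, 4.83, 4.96, 4.16 and 4.46 in the Itgb3 knockouts, and from 3.80 through 4.49 to 7.51 in the labelled double knockouts.

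The highest Cxcl10 (6.68) and Cxcl11 (7.51) belonged to 1 labelled double knockout, replicate 6, and the highest Cxcl9 (7.58) to another, replicate 2. Against control the labelled double knockouts differed by 0.36 for Cxcl9 (SE 0.362), 0.18 for Cxcl10 (SE 0.271) and 0.86 for Cxcl11 (SE 0.453), with adjusted p of 0.650, 0.775 and 0.343. Without replicate 6, a fit added after the values were seen, these differences were 0.34, −0.07 and 0.36 (adjusted p = 0.719, 0.906 and 0.508). Across the 19 tumours Cxcl9 and Cxcl10 varied together (r = 0.63, rho = 0.70, permutation p adjusted over 10 gene pairs = 0.0196). The correlation was 0.56 without the 2 tumours farthest from the median of Cxcl9 (adjusted permutation p = 0.0672) and 0.61 after each group's mean was subtracted (adjusted permutation p = 0.0602).

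**Figure D2:**
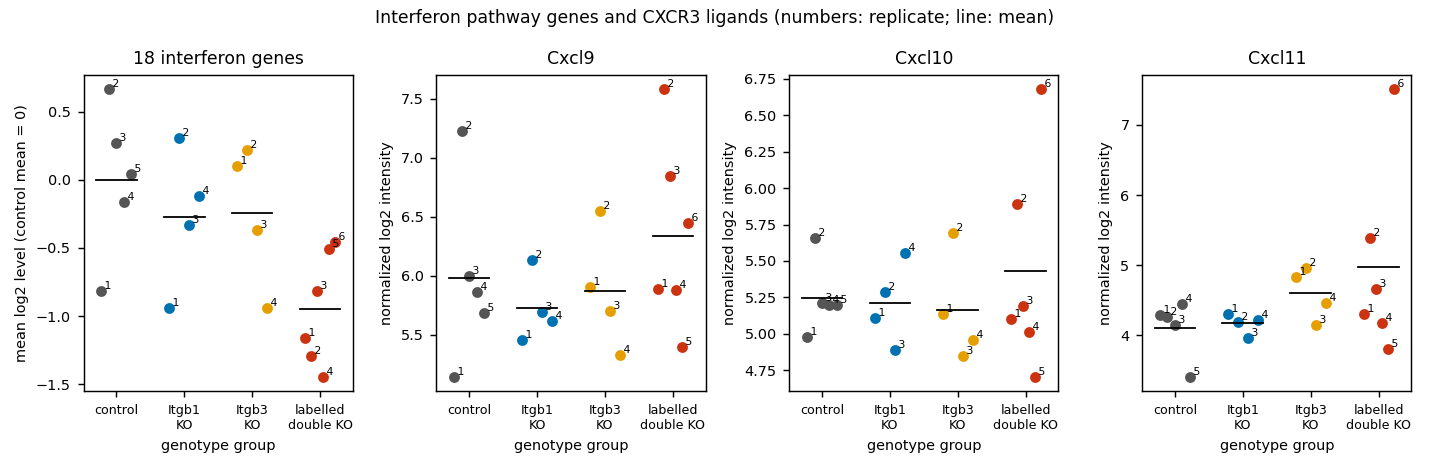
Mean log2 level of 18 interferon pathway genes (control mean set to 0) and log2 levels of Cxcl9, Cxcl10 and Cxcl11, 1 point per tumour with its replicate number and a line at the group mean. The 6 labelled double knockouts lie between −1.45 and −0.454 for the interferon genes, while replicates 2 and 6 of that group hold the highest ligand levels.

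Other interferon pathway genes had lower mean levels in the labelled double knockouts than in control, without passing. The mean level of the 18 interferon pathway genes tested, relative to the control mean, was −1.45 to −0.454 in the labelled double knockouts and −0.819 to 0.666 in control, so the ranges overlapped. In labelled double minus control 5 of the 18 were above 0, their median was −0.85, and 0 passed in limma. At an unadjusted p under 0.05 there were 13 of 18, all but 1 of them below 0. Of all genes in that comparison 16.9% had such a p, and 55.9% were above 0. Mx2, an antiviral GTPase, differed by −1.94 (adjusted p = 0.0577) and Rsad2, the antiviral enzyme viperin, by −1.64 (adjusted p = 0.0577). Neither Ifng nor Ifnb1, the genes of interferon gamma and beta, reached the filter on any array. The correlation of Cxcl10 with the interferon regulatory factor gene Irf7 did not pass (r = 0.21, rho = 0.37, adjusted permutation p = 0.516). It was 0.51 without the 2 tumours farthest from the median (adjusted permutation p = 0.0672) and 0.42 within groups.

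The CCR2 class, Ccl2, Ccl7, Ccl8 and Ccl12, lies in a cluster with Ccl11 and Ccl1, and all 4 passed the filter. Ccl8, which in mice also acts on CCR8, had the widest spread of the 4. Its log2 levels were 6.36, 6.28, 6.10, 8.30 and 6.92 in control, 7.66, 7.08, 6.72 and 7.60 in the Itgb1 knockouts, 6.40, 4.98, 8.97 and 5.80 in the Itgb3 knockouts, and from 5.67 through 6.83 to 8.37 in the labelled double knockouts. The Itgb3 knockouts held both the highest and the lowest tumour of all 19, and the group SD there was 1.72. Its differences from control were 0.47, −0.25 and 0.20 in the Itgb1, Itgb3 and labelled double knockouts (SE 0.658, 0.658 and 0.594).

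Ccl2, the main monocyte attractant, averaged 5.44 ± 0.41 (SD, n = 5) in control, 5.69 ± 0.36 (n = 4) in the Itgb1 knockouts, 5.57 ± 0.34 (n = 4) in the Itgb3 knockouts and 5.67 ± 0.24 (n = 6) in the labelled double knockouts. Ccl7, its close relative, ranged from 4.46 to 5.76 over all tumours, and Ccl12 from 3.95 to 5.75. Ccl2 and Ccl7 varied together (r = 0.62, rho = 0.60, adjusted permutation p = 0.0196, r = 0.62 without the 2 tumours farthest from the median and 0.70 within groups). The genes are close relatives, and cross-hybridisation between their probes was not tested.

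Ccl3, Ccl4, Ccl5, Ccl6 and Ccl9 follow each other in the gene order, and all 5 passed the filter. Ccl9, a CCR1 ligand of rodents made by myeloid cells, had log2 levels of 7.18, 7.45, 7.42, 8.47 and 7.91 in control, 8.24, 8.19, 8.21 and 8.81 in the Itgb1 knockouts, 7.67, 6.19, 8.98 and 7.22 in the Itgb3 knockouts, and from 7.21 through 8.27 to 8.65 in the labelled double knockouts. Ccl6, its neighbour and relative, had 4.66, 5.16, 4.70, 6.33 and 5.17, then 6.15, 5.62, 4.88 and 6.16, then 4.28, 3.79, 6.47 and 4.48 in the same groups, and from 4.51 through 4.97 to 6.02 in the labelled double knockouts. For both genes the lowest tumour was Itgb3 knockout replicate 2 and the highest was replicate 3 of that group. Their levels varied together over the 19 tumours (r = 0.86, rho = 0.87, adjusted permutation p = 0.0002), with r = 0.80 without the 2 tumours farthest from the median and 0.87 within groups.

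In the Itgb1 knockouts Ccl9 differed from control by 0.68 (SE 0.422, 1.60-fold, adjusted p = 0.982) with 3 of the 4 tumours inside the control range and 1 above it. In Itgb3 minus Itgb1 knockout Ccl6 differed by −0.95 (SE 0.488) and Ccl9 by −0.85 (SE 0.445), both with an adjusted p of 0.996. In that comparison 0 of 8 fibroblast markers were above 0 (42.8% of all genes), with a median of −0.93. In limma 0 of these 8 markers passed, with 3 at an unadjusted p under 0.05 (4.55% of all genes). Their part in the result was not tested. Ccl5, made chiefly by T and NK cells, averaged 6.53 ± 0.52 in control and 6.35 ± 0.72 in the labelled double knockouts, against 6.08 ± 0.38 after loss of Itgb1 and 6.04 ± 0.37 after loss of Itgb3. Its correlation with the T cell receptor subunit gene Cd3e did not pass (r = 0.30, rho = 0.41, adjusted permutation p = 0.360), with r = 0.50 without 2 tumours (adjusted permutation p = 0.0672) and 0.32 within groups. Ccl3 and Ccl4, the macrophage inflammatory proteins, ranged from 5.03 to 6.32 and from 4.69 to 5.32. Their correlation with each other did not pass (r = −0.01, rho = −0.10, adjusted permutation p = 0.982), although the genes follow each other in the gene order. Ccl4 differed from control by 0.20 in the Itgb3 knockouts (SE 0.117, adjusted p = 0.845 in limma).

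Of the 7 ligands of CCR3, CCR4, CCR6 and CCR8, Ccl11, Ccl17 and Ccl20 passed the filter. Ccl17, which draws CCR4-bearing T cells, had log2 levels of 4.18, 4.71, 4.48, 4.55 and 4.21 in control, 5.01, 4.71, 4.68 and 4.71 in the Itgb1 knockouts, 4.32, 4.38, 4.99 and 4.58 in the Itgb3 knockouts, and from 4.61 through 4.91 to 5.79 in the labelled double knockouts. In the labelled double knockouts 5 of 6 lay above every control. The difference from control was 0.61 (SE 0.179, 1.53-fold), with the smallest p among the ligands in that comparison, but it did not pass (adjusted p = 0.116). Ccl17 lay near the filter, which it reached on 3 of 5 control, 4 of 4 Itgb1 knockout, 3 of 4 Itgb3 knockout and 6 of 6 labelled double knockout arrays.

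Ccl20, the CCR6 ligand of epithelia, had 4.90, 4.90, 4.74, 4.67 and 4.86 in control, 4.84, 4.83, 4.58 and 4.67 in the Itgb1 knockouts, 4.95, 5.0, 5.35 and 5.09 in the Itgb3 knockouts, and from 4.51 through 4.71 to 5.04 in the labelled double knockouts. All 4 Itgb3 knockouts lay above all controls and all Itgb1 knockouts, while 5 of 6 labelled double knockouts lay below every Itgb3 knockout. The differences were 0.28 from control (SE 0.120, adjusted p = 0.796), 0.36 from the Itgb1 knockouts (SE 0.126, adjusted p = 0.996) and, for labelled double minus Itgb3 knockout, −0.36 (SE 0.115, adjusted p = 0.0902). Ccl11, or eotaxin, ranged from 4.20 to 6.69, and both the highest and the lowest tumour were labelled double knockouts. Ccl1 (3.59 to 4.26), Ccl22 (3.31 to 4.65), Ccl24 (3.45 to 4.41) and Ccl26 (2.59 to 3.75) were under the filter. Over the 8 ligands under the filter, differences from control ran from −0.54 to 0.12 in the Itgb1 knockouts, from −0.16 to 0.29 in the Itgb3 knockouts and from −0.22 to 0.13 in the labelled double knockouts.

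**Figure D3:**
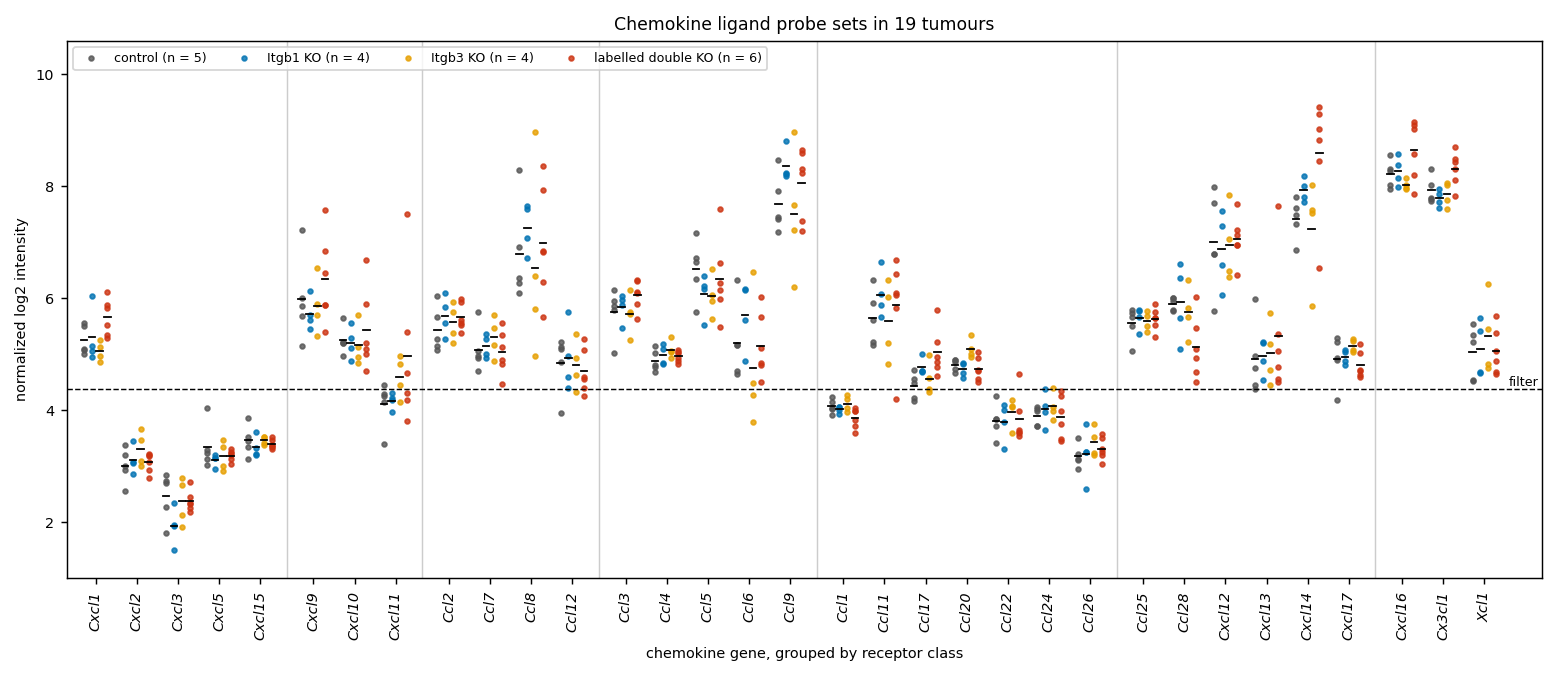
Normalized log2 intensity of each of the 33 chemokine genes in each tumour, coloured by genotype, with a bar at the group mean and a dashed line at the intensity filter. Heights of different genes are not comparable, since probes differ, but within a gene the 4 genotypes overlap nearly everywhere. For Cxcl14, 5 of 6 labelled double knockouts lie above every control and 1 below. For Ccl28, 5 of 6 lie below every control and 1 above.

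Among the homeostatic and mucosal ligands Cxcl14 had, in the labelled double knockouts, the largest difference from control of all 25. Cxcl14, a chemokine of epithelia and fibroblasts, had log2 levels of 7.62, 6.87, 7.33, 7.81 and 7.49 in control, 7.82, 8.18, 8.01 and 7.71 in the Itgb1 knockouts, and 7.52, 5.86, 8.03 and 7.57 in the Itgb3 knockouts. The labelled double knockouts had 8.45, 9.42, 8.83, 9.29, 6.54 and 9.03. Thus 5 of 6 lay above every other tumour, and replicate 5 lay below every control. The difference from control was 1.17 (SE 0.424, 2.25-fold, adjusted p = 0.177) and that from the Itgb3 knockouts 1.35 (SE 0.452, 2.54-fold, adjusted p = 0.100). Without replicate 5 they were 1.58 (adjusted p = 0.0218) and 1.76 (adjusted p = 0.00923), so both passed without this 1 tumour. Without replicate 2 of the labelled double knockouts the difference from control was 1.00, the lowest with 1 tumour left out. Of 28 alternatives for the difference from control, 1 changed whether it passed, and the limma adjusted p reached 0.328. With array medians subtracted the difference from the Itgb3 knockouts was 1.46 (adjusted p = 0.0479).

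Ccl28, the mucosal CCR10 ligand that draws IgA plasma cells into the lactating gland, differed the other way. It had 5.79, 6.0, 6.0, 5.78 and 5.95 in control, 5.66, 5.10, 6.37 and 6.61 in the Itgb1 knockouts, 5.83, 5.23, 6.32 and 5.67 in the Itgb3 knockouts, and from 4.51 through 5.02 to 6.03 in the labelled double knockouts. In that group 5 of 6 tumours lay below every control, and replicate 6 lay above every control. The difference was −0.78 from control (SE 0.273, 1.72-fold lower, adjusted p = 0.165), −0.81 from the Itgb1 knockouts (SE 0.291, adjusted p = 0.268) and −0.64 from the Itgb3 knockouts (SE 0.291, adjusted p = 0.215).

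No other member of this class passed. Cxcl12, the CXCR4 ligand of stromal cells, averaged 7.01 ± 0.87 in control and 7.06 ± 0.41 in the labelled double knockouts, with 6.88 ± 0.68 after loss of Itgb1 and 6.94 ± 0.66 after loss of Itgb3. Its correlation with the fibroblast receptor gene Pdgfra did not pass (r = 0.44, rho = 0.38, adjusted permutation p = 0.148), with r = 0.38 without 2 tumours and 0.49 within groups. Cxcl13, the B cell attractant, ranged from 4.39 to 5.98 except for 7.65 in labelled double knockout replicate 2. Ccl25, the CCR9 ligand, ranged from 5.06 to 5.91, and Cxcl17, a mucosal chemokine, from 4.18 to 5.29. Cxcl17 differed by −0.35 in labelled double minus Itgb3 knockout (SE 0.172, adjusted p = 0.258 in limma), with 5 of 6 labelled double knockouts below every Itgb3 knockout. From control it differed by 0.25 in the Itgb3 knockouts (SE 0.179, adjusted p = 0.889) and by −0.10 in the labelled double knockouts (SE 0.162, adjusted p = 0.795). Ccl19 was covered by 13 probe sets that each named several genes, so it is not among the 33.

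The membrane-anchored chemokines Cxcl16 and Cx3cl1 both stood higher in most labelled double knockouts, without passing. Cxcl16, which binds CXCR6 and also takes up oxidised lipoprotein, had 7.95, 8.32, 8.03, 8.55 and 8.27 in control, 8.15, 8.58, 7.99 and 8.39 in the Itgb1 knockouts, 8.03, 8.15, 7.95 and 7.97 in the Itgb3 knockouts, and from 7.87 through 8.81 to 9.15 in the labelled double knockouts. In that group 4 of 6 lay above every control and 1 below every control. The difference was 0.43 from control (SE 0.201, 1.35-fold, adjusted p = 0.287) and 0.63 from the Itgb3 knockouts (SE 0.215, 1.55-fold, adjusted p = 0.105). Without labelled double knockout replicate 6 the latter was 0.79 and passed (adjusted p = 0.0291).

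Cx3cl1, or fractalkine, an adhesion molecule for monocytes and NK cells, had 7.73, 7.78, 7.80, 8.31 and 8.02 in control, 7.86, 7.61, 7.73 and 7.94 in the Itgb1 knockouts, 8.07, 7.60, 7.76 and 8.02 in the Itgb3 knockouts, and from 7.83 through 8.37 to 8.71 in the labelled double knockouts. In that group 5 of 6 lay above every single knockout of either kind, and 3 of 6 above every control. The difference was 0.39 from control (SE 0.148, adjusted p = 0.198), 0.53 from the Itgb1 knockouts (SE 0.157, adjusted p = 0.189) and 0.45 from the Itgb3 knockouts (SE 0.157, adjusted p = 0.112). It had the smallest p of the ligands in the interaction, at 0.59 (SE 0.227, adjusted p = 0.301). Xcl1, the lymphotactin of T and NK cells, ranged from 4.53 to 6.26 with groups that overlapped.

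In labelled double minus Itgb3 knockout the call depended on the setting for several of these genes. With each array's median subtracted, Cx3cl1 (0.56), Cxcl1 (0.72), Cxcl14 (1.46) and Cxcl16 (0.74) passed, with adjusted p between 0.0381 and 0.0479. With array weights, Ccl20 (−0.45), Ccl28 (−0.79), Cx3cl1 (0.43) and Cxcl16 (0.71) passed, with adjusted p between 0.0123 and 0.0480. Over all genes, calls in this comparison went from 408 to 1226 with medians subtracted and to 1568 with array weights. Calls thus also rose over all genes, and the shares of ligands and of all genes were not compared under these settings. The ligands that passed there are therefore not read as a trait of the ligands.

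Several ligands varied across tumours with the level of fibroblast markers. The mean log2 level of 8 fibroblast markers (Pdgfra, Pdgfrb, Col1a1, Col1a2, Col3a1, Dcn, Lum and Dpt), relative to the control mean, was −0.40 to 0.69 in control, 0.04 to 0.64 in the Itgb1 knockouts, −1.94 to 0.69 in the Itgb3 knockouts and −0.82 to 0.96 in the labelled double knockouts. All 8 passed the filter, and 0 passed against control in any knockout group (limma), also at an unadjusted p under 0.05. Of all genes 4.86%, 6.14% and 16.9% had such a p against control in the Itgb1, Itgb3 and labelled double knockouts. In labelled double minus Itgb3 knockout 0 of 8 passed, 5 had an unadjusted p under 0.05 (21.1% of all genes) and the median difference was 1.01. Itgb3 knockout replicate 2 was lowest, at −1.94, and labelled double knockout replicate 5 next, at −0.82. These are the tumours with the lowest Cxcl14, at 5.86 and 6.54.

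Each of the 25 ligands was set against the fibroblast, macrophage and T and NK cell marker levels, 75 relations chosen after the values were seen. By r, 7 passed after adjustment over all of them. Ccl8 followed the fibroblast level (r = 0.89, rho = 0.93, adjusted permutation p = 0.000375), and r was 0.87 without the 2 tumours farthest from the median and 0.93 within groups. Ccl9 (r = 0.89, rho = 0.84, adjusted permutation p = 0.000375), Ccl6 (r = 0.82, rho = 0.82, adjusted permutation p = 0.0005) and Ccl11 (r = 0.75, rho = 0.78, adjusted permutation p = 0.00311) did so too. For these 3 genes r was 0.83, 0.81 and 0.65 without 2 tumours and 0.89, 0.82 and 0.77 within groups. Cxcl14 gave r = 0.76 and rho = 0.74 (adjusted permutation p = 0.0015), but 0.55 without 2 tumours (adjusted permutation p = 0.158) and 0.76 within groups (adjusted permutation p = 0.0539). For Cxcl13 r was 0.58 and did not pass (adjusted permutation p = 0.124), whereas rho was 0.77 (adjusted permutation p = 0.003). Its r was 0.62 without 2 tumours (adjusted permutation p = 0.0378) and 0.65 within groups (adjusted permutation p = 0.0539).

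Genes of 1 tumour share its RNA and its array, and the smallest p that the permutations can give is 1e-05. The relation of Cxcl12 to the fibroblast level did not pass (r = 0.05, rho = 0.23, adjusted permutation p = 0.914), and r was 0.46 without 2 tumours (adjusted permutation p = 0.240). Xcl1 followed the 7 T and NK cell markers tested (r = 0.76, rho = 0.71, adjusted permutation p = 0.00213), with r = 0.73 without 2 tumours and 0.84 within groups. Cxcl16 followed the 10 macrophage markers (r = 0.80, rho = 0.68, adjusted permutation p = 0.000563), with r = 0.64 without 2 tumours and 0.68 within groups (adjusted permutation p = 0.112). Ccl6, Ccl8 and Ccl9 also had r of 0.55, 0.51 and 0.56 with the macrophage level, without passing. Within groups these were 0.65, 0.56 and 0.54, and there Ccl6 passed (adjusted permutation p = 0.0169). Cxcl14 had r = −0.36 with the T and NK cell level and −0.71 within groups (adjusted permutation p = 0.348 and 0.0452). The part of any marker in a difference between genotypes was not tested.

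**Figure D4:**
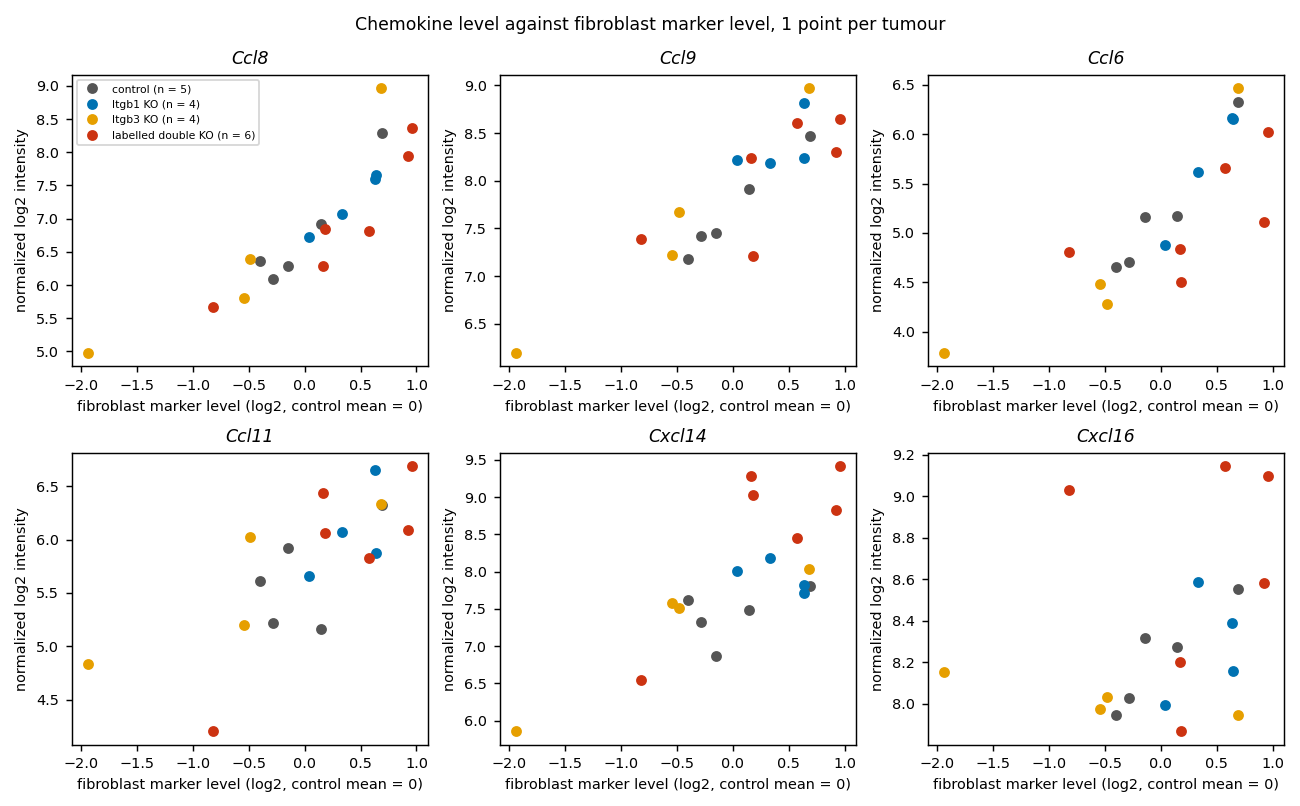
Log2 level of Ccl8, Ccl9, Ccl6, Ccl11, Cxcl14 and Cxcl16 against the mean level of 8 fibroblast markers (log2, control mean set to 0), 1 point per tumour, coloured by genotype. Ccl8 lies on a narrow band across all genotypes (r = 0.89), Cxcl14 places 5 labelled double knockouts above every other tumour, and Cxcl16 has r = 0.30 over all tumours and 0.63 without the 2 farthest from the median marker level.

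Macrophage marker levels were −0.38 to 0.34 in control, −0.05 to 0.22 in the Itgb1 knockouts, −0.37 to 0.04 in the Itgb3 knockouts and −0.17 to 0.74 in the labelled double knockouts, so the last overlapped control. All 10 macrophage markers passed the filter. In labelled double minus control 9 of 10 were above 0 and 1 rose, Cd14, a lipopolysaccharide co-receptor (1.59, SE 0.229, adjusted p = 0.00514). In labelled double minus Itgb3 knockout 10 of 10 were above 0 and Adgre1, Cd14 and Csf1r were higher (0.98, 1.19 and 0.98, adjusted p = 0.0163, 0.0182 and 0.0341). The median over the list was 0.27 and 0.61 in these comparisons, beside 0.03 in both over all genes. Of all genes 55.9% and 54.7% were above 0 there, and 0.386% and 2.87% passed.

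Of 17 signalling chemokine receptor genes analysed here 10 passed the filter. The receptor genes Ccr3, Ccr4, Ccr6, Ccr8, Ccr9, Ccr10 and Cxcr6 were under the filter on all 19 arrays. Their ligands Ccl11, Ccl17, Ccl20, Ccl8, Ccl25, Ccl28 and Cxcl16, in the same order, passed the filter. Cxcr4 and Cx3cr1, the receptors of Cxcl12 and Cx3cl1, were above it on all 19. In limma 0 of 10 passed against control in the Itgb1, Itgb3 or labelled double knockouts (0.00703%, 0% and 0.386% of all genes). At an unadjusted p under 0.05 there were 0 for the labelled double (16.9% of all genes), 1 for the Itgb1 (4.86%) and 2 for the Itgb3 knockouts (6.14%). In labelled double minus Itgb3 knockout 1 of 10 passed (2.87% of all genes), and 3 had an unadjusted p under 0.05 (21.1%). Ccr1, the receptor of Ccl3, Ccl5, Ccl6 and Ccl9, was higher in the labelled double than in the Itgb3 knockouts (0.82, SE 0.202, adjusted p = 0.0352) and differed from control by 0.31 (adjusted p = 0.416). Ccr7, the receptor that takes dendritic cells to lymph nodes, differed by −0.65 from the Itgb3 knockouts (adjusted p = 0.0797). The atypical receptors Ackr2, Ackr3 and Ccrl2, which bind chemokines without driving migration, gave 0 of 3 calls in each comparison (limma), and against control 0 at an unadjusted p under 0.05.

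Of 13 NF-kappaB pathway genes and targets tested, 11 were above 0 in labelled double minus control, where 55.9% of all genes were. In limma 0 passed, and 4 had an unadjusted p under 0.05 (16.9% of all genes). In labelled double minus Itgb3 knockout 13 of 13 were above 0 and 2 were higher, Nfkbie, an inhibitor that NF-kappaB induces (0.71, SE 0.167, adjusted p = 0.0313), and Rela, the p65 subunit (0.49, SE 0.127, adjusted p = 0.0454). Of all genes 54.7% were above 0 and 2.87% passed in that comparison. The list's mean level was 0.10 to 0.36 in the labelled double knockouts, −0.24 to 0.12 in control, −0.18 to 0.12 in the Itgb1 knockouts and −0.24 to −0.12 in the Itgb3 knockouts. On this measure the labelled double knockouts overlapped control but not the Itgb3 knockouts. How often other gene lists separate these groups was not counted, and a relation of this list to any ligand was not tested.

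Of 8 chemokine genes whose symbols fall outside the naming rule, 4 could be tested, and 0 passed in any comparison (limma). At an unadjusted p under 0.05 there was 1 in labelled double minus control and 1 in labelled double minus Itgb3 knockout, Ccl27a in both. Pf4 and Ppbp, the platelet chemokines, differed between the labelled double and the Itgb3 knockouts by 0.05 and 0.10. Ccl27a, a CCR10 ligand like Ccl28, differed in that comparison by −0.41 (SE 0.156, adjusted p = 0.139) and from control by −0.31 (SE 0.146, adjusted p = 0.287). Its sign was that of Ccl28.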

How the data were processed

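The deposited table held log2 intensities of 41345 probe sets on 19 arrays, normalized by the authors with Affymetrix Expression Console, per the submitters' processing notes (version and method: not given in the sources used here). Values ran from 0.542 to 13.7 and were used as deposited. A platform annotation table gave 1 symbol for 23521 probe sets, several for 1814 and none for 16010, and 23328 were matched by Entrez identifier to the GRCm38.p6 gene table. Probes may cross-hybridise between close relatives.

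All 19 arrays entered 1 limma 3.58.1 fit (lmFit, eBayes) in R 4.3.3, with 1 mean per group, no covariates and 15 residual degrees of freedom (18.7 after moderation). P-values were two-sided and adjusted by Benjamini-Hochberg over 14231 genes, with a threshold of 0.05. Correlations used two-sided permutations with 100000 resamples. The fit was tested on simulated data.

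The members and lists were chosen with earlier results of these data known. Named with values in each group were, per knockout against control, the 4 members with the smallest p in each direction. The member with the highest mean in each receptor class and any member that passed were named so too. Ccl4 and Cxcl17, which fall under this rule, are given by their range and their differences. Other lists name up to 3 genes with the smallest p. Alternatives covered scaling, filters, probe set choice, array weights, variance trend, groups in the fit and leaving out each tumour. Replicate numbers only name tumours. The 3 promoters printed were chosen after their letters were seen, and the run they share was found by comparing the RefSeq sequences letter by letter.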

Additional observations from a re-analysis of the deposited data

Results flagged for a closer look

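Of 100 sets of 1 chemokine ligand in 1 genotype group, 7 held a tumour far from the rest of its group, a gap that chance gives in about 1 of 20 sets. Labelled double knockout replicate 5 was low for Cxcl14 (6.54, the others 8.45 to 9.42) and for Ccl11 (4.20, the others 5.83 to 6.69). Labelled double knockout replicate 2 was high for Cxcl13 (7.65, the others 4.51 to 5.37). Control replicate 1 was low for Ccl12 (3.95, the others 4.87 to 5.22), and control replicate 5 was low for Cxcl11 (3.41, the others 4.15 to 4.45). Itgb1 knockout replicate 1 was high for Ccl17 (5.01, the others 4.68 to 4.71), and replicate 4 of that group was high for Ccl9 (8.81, the others 8.19 to 8.24).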

How the results depend on the processing

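Over 24 differences of named ligands from control and 666 alternatives, 664 kept their direction and their side of an adjusted p of 0.05. Cxcl14 passed without labelled double knockout replicate 5, and Cxcl9 in Itgb1 knockout minus control was −0.26 and ranged from −0.47 (without control replicate 1) to 0.0519 (without control replicate 2). Added after the values were seen, Cxcl10 in labelled double minus control went from 0.18 to −0.0681 without labelled double knockout replicate 6. Weak correlations turned sign, Ccl3 with Ccl4 from −0.00591 to 0.0273 with group means subtracted, and Cxcl16 with Epcam from −0.154 to 0.0569 with array medians subtracted, 0.0711 with group means subtracted and 0.023 without 2 tumours. The causes were not tested.

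Genes called in labelled double minus control numbered 55, and 100 with array medians subtracted, 31 with quantile normalization, 27 with no filter, 31 with array weights, 26 with a variance trend and 2 with only those groups fitted. Labelled double minus Itgb3 knockout gave 408, and 1226 with array medians subtracted, 231 with quantile normalization and 1568 with array weights. Labelled double minus Itgb1 knockout gave 3, and 0 with the filter on all 19 arrays, 33 with array weights and 7 with only those groups fitted. With array weights, Itgb1 knockout minus control went from 1 to 0 and the interaction from 0 to 3. Ligands called in labelled double minus Itgb3 knockout went from 0 to 4 with array medians subtracted and to 4 with array weights. The ligands' median in the interaction went from −0.02 to 0.24 with the filter on all 19 arrays, which tests fewer of them.

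Leaving out 1 tumour at a time gave 14 to 126 genes in labelled double minus control (14 without control replicate 1 or labelled double knockout replicate 2, 126 without labelled double knockout replicate 5) and 56 to 460 in labelled double minus Itgb3 knockout (56 without Itgb3 knockout replicate 1). It gave 0 to 24 in labelled double minus Itgb1 knockout, 0 to 1 in Itgb1 knockout minus control, 0 to 1 in Itgb3 minus Itgb1 knockout and 0 to 5 in the interaction. Ligands called ranged from 0 to 1 in labelled double minus control, 0 to 1 in labelled double minus Itgb3 knockout and 0 to 1 for any difference among groups. The ligands' median in the interaction ranged from −0.21 to 0.21. In labelled double minus Itgb3 knockout it ranged from 0.11 (without labelled double knockout replicate 6) to 0.37 (without replicate 5 of that group). No paired analysis was possible because the labels give no replicate numbers that the groups share. Ligands under the filter could not be ranked, since signal near background limits them.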

Other observations

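The highest tumour of the 19 was 1 of the 6 labelled double knockouts for 13 of the 25 tested chemokine ligands, and the lowest was 1 of the 5 controls for 12. A labelled double knockout was lowest for 7, and an Itgb3 knockout was highest for 6 and lowest for 6. Controls were highest for 3, and Itgb1 knockouts were highest for 3 and lowest for 0. The same counts were not made over all genes, and a larger group holds more extremes by its size alone. They are therefore not read as a trait of the ligands. These counts were also spread unevenly over tumours. Labelled double knockout replicate 2 was highest for Ccl11, Ccl17, Ccl25, Cxcl13, Cxcl14 and Cxcl9, and replicate 6 for Ccl5, Cxcl1, Cxcl10 and Cxcl11. Itgb3 knockout replicate 3 was highest for Ccl20, Ccl6, Ccl8 and Ccl9, whereas replicate 2 of the same group was lowest for Ccl6, Ccl8, Ccl9, Cx3cl1 and Cxcl14 and highest for Xcl1. The mean level over the 25 ligands relative to the control mean was 0.71 in labelled double knockout replicate 2 and −0.20 in replicate 5, and it ran from −0.26 to 0.30 in control.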
